A study of Mus musculus with 4 samples.

Results

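The mature arms of the mouse miR-21a hairpin, miR-21a-5p (listed as mmu-miR-21a-5p) and miR-21a-3p (listed as mmu-miR-21a-3p), were followed in 4 small RNA libraries of resting bone marrow-derived macrophages (BMDMs). They are 2 of 1979 mature miRNAs in the table, and both are among the 251 with a mean of at least 10 RPM, called expressed here (RPM, reads per 1000000 counts of a library). The arms were selected on the share of all counts that miR-21a takes in these same libraries, so their levels are a description and carry no test. Libraries WT A and WT B were wild-type at mir-146a. Library KO was mir-146a-null. Library 3′F was homozygous for a mir-146a allele in which some of the bases outside the seed had been swapped between the strands of the duplex. All donors were mice of 6 to 7 months on a mix of 129 and B6, 3 mice are named per genotype, and whether a library pools them is not stated. Both alleles are constitutive and act in the whole mouse, so the macrophages and their precursors carried them throughout. Marrow was plated at 85000 cells per cm2, grown for 8 to 9 days with M-CSF at 10 ng/ml, and then kept for 16 h in medium without LPS. KO and 3′F have 1 library each, so no p-value was computed and each value was set beside the spread between WT A and WT B.

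A miRNA hairpin is cut by Drosha and Dicer into a short duplex, and an Argonaute protein keeps 1 strand as the guide while the other, the passenger strand, is mostly degraded. The guide finds messenger RNAs mainly through its seed, bases 2 to 8, and lowers their stability and translation. The miR-21 guide comes from the 5′ arm, is abundant in many differentiated and transformed cells, is induced by STAT3, AP-1 and NF-κB signalling, and represses Pdcd4 and Spry1, among others. In macrophages it is known as a brake on inflammatory output.

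The sequences below are the RefSeq mature sequences of the GRCm38.p6 build, 5′ to 3′, with the seed in capitals. The arms of miR-21a come first, followed by the 2 near copies of the 5p arm that the table lists, which show how far reads could be told apart, and by the leading miRNAs of the 3 seed families next in abundance.
miR-21a-5p: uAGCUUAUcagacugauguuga
miR-21a-3p: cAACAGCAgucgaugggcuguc
miR-21b: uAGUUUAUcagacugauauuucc
miR-21c: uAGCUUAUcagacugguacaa
let-7i-5p: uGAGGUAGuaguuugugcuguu
miR-27b-3p: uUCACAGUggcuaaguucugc
miR-221-3p: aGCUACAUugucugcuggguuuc

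In GENCODE vM21 (GRCm38), Mir21a (ENSMUSG00000065455.1) occupies chr11:86584067-86584158 on the minus strand, a hairpin of 92 nt. It lies within exon 12 of 12 of Vmp1-201, in the 3′ UTR of Vmp1, which encodes a membrane protein of autophagy, on the same strand and 202 bp from the end of that gene. By RefSeq, the 5p arm is at chr11:86584120-86584141 and the 3p arm at chr11:86584082-86584103. In a fold of minimum free energy (-46.2 kcal/mol), 19 of the 22 bases of the 5p arm were paired to the 3p arm, all 7 seed bases among them, with 16 nt between the arms. Mir146, the gene altered in KO and 3′F, is on the same chromosome, 43209605 bp away.

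The libraries held between 11410940 and 19087640 counts, and 3 counts, taken as the detection floor, correspond to 0.157 to 0.263 RPM. Between 663 and 731 mature miRNAs had at least 3 counts. miR-146a-5p stood at 6253 and 5485 RPM in the WT libraries (A, then B), 13.4 RPM in KO and 6.64 RPM in 3′F, low in both libraries labelled as altered at mir-146a. All 4 miRNAs of the myeloid list were expressed, with a sum of 2822 to 3639 RPM. Of these, miR-223-3p, which is enriched in myeloid cells, was at 1466 to 1636 RPM and miR-511-3p, known from macrophages, at 65.6 to 80.8 RPM, while both miR-142a arms are shared by blood lineages in general and do not tell myeloid cells from lymphocytes. Of the other markers, the epithelial sum was 428 to 814 RPM, led by miR-200b-3p, and the erythroid sum was 93.2 RPM for WT A, 94.1 for WT B, 36.5 for KO and 43.3 for 3′F. The neuronal sum, 3.39 to 4.97 RPM, was all miR-9-5p, which is also on the inflammation list used below. Stromal markers summed to 5.56 to 9.23 RPM and endothelial to 9.82 to 13.1 RPM. Lymphocyte markers summed to 1.54 to 2.93, hepatocyte to 1.11 to 1.84 and muscle to 0.314 to 0.803 RPM. Their part in the miR-21a values was not tested. In bulk RNA, fewer cells of a type and less of a miRNA per cell cannot be told apart.

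miR-21a-5p, the guide strand, was the most abundant miRNA in all 4 libraries. Its share of all counts was 37.9% for WT A, 34.1% for WT B, 33.4% for KO and 35.4% for 3′F. These are 379027, 341385, 333652 and 354381 RPM, a mean of 360206 ± 26617 RPM in WT (SD, n = 2 libraries). WT A was the highest and KO the lowest, with 3′F between the WT libraries and KO 0.773 percentage points below WT B. WT A and WT B differed by 3.76 percentage points. The 95% Wilson interval of the share in WT A ran only from 37.88% to 37.93%, and the others were as narrow, so counting error was small beside the difference between WT libraries. Such intervals cover counting error alone, since PCR reads are not independent molecules.

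**Figure D1:**
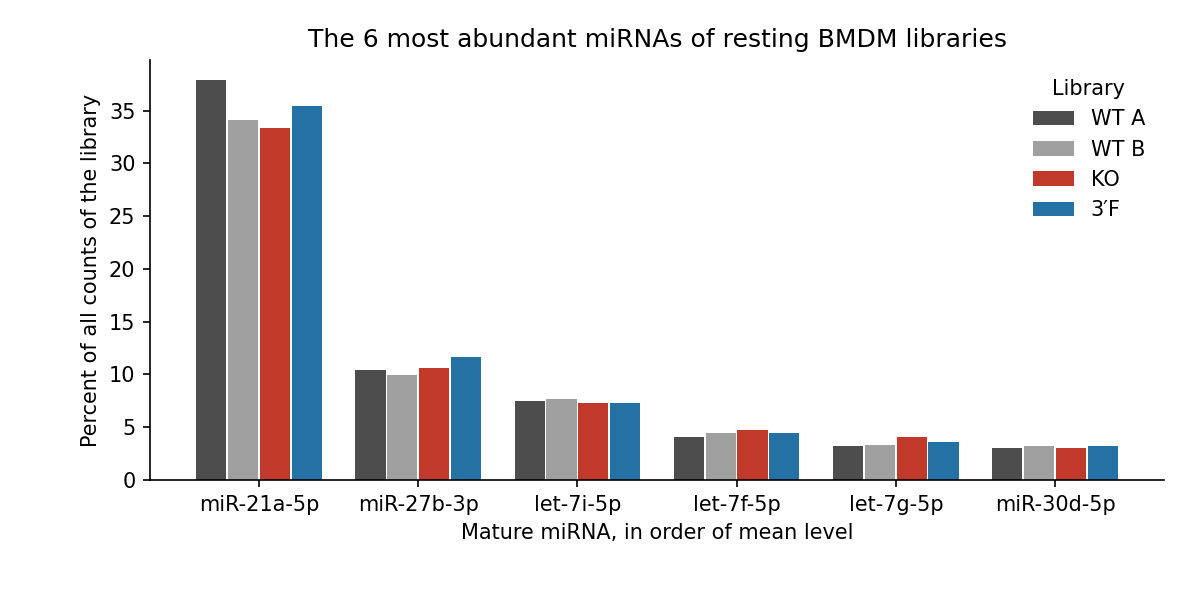
Percent of all counts of a library (vertical axis) taken by miR-21a-5p and the 5 miRNAs next in mean level, with 1 bar for each of the 4 libraries. miR-21a-5p takes 33.4% to 37.9%, and miR-27b-3p, the next, is 3.05 to 3.64 times lower.

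The next 5 miRNAs together did not reach it. miR-27b-3p, let-7i-5p, let-7f-5p, let-7g-5p and miR-30d-5p summed to 28.2% of the counts of WT A, 28.6% of WT B, 29.7% of KO and 30.2% of 3′F. Counted down each library's own ranking, exceeding miR-21a-5p took 13 miRNAs for WT A, 7 for WT B, 7 for KO and 8 for 3′F. miR-21a-5p was 3.64, 3.44, 3.16 and 3.05 times miR-27b-3p (order WT A, WT B, KO, 3′F). Ligation of adapters depends on the sequence of a small RNA, as the study's own description of the table states, so levels set side by side between miRNAs here are levels of reads and not of molecules. When 1 miRNA is compared between libraries, a constant bias of this kind cancels in its own counts. It remains in the library sum by which RPM values are scaled.

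The share of the miR-21 seed, AGCUUAU, was that of miR-21a-5p, which made up at least 99.9988% of it in every library. The let-7 seed, GAGGUAG, was shared by 11 matched miRNAs of which 9 were expressed, and let-7 miRNAs are known for restraining proliferation and growth genes. As a family they made up 17.1% of WT A, 18.3% of WT B, 19.5% of KO and 17.9% of 3′F, so that the single miR-21a-5p exceeded all of them by 2.22, 1.86, 1.71 and 1.98 times. The miR-27 seed, UCACAGU, held 10.96%, 10.48%, 11.22% and 12.23% in the same order. The seed of miR-221 and miR-222, GCUACAU, known for targeting the cell cycle inhibitor p27, held 4.203%, 5.603%, 3.981% and 4.539%. Names matched to RefSeq covered 93.8% to 94.3% of counts over 1 line per miRNA, and miR-30d-5p was not among them.

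The near copies of the guide were close to absent. Relative to miR-21a-5p, with positions counted from 1 at its 5′ end, miR-21b differs by C4U, which lies in the seed, and by G18A, G21U and A22C. miR-21c keeps the first 15 bases and the seed and differs by A16G, G18A, U19C, U20A and G21A. Counts of 39.67 and 30.33 in WT (A, then B), 77.83 in KO and 63.83 in 3′F were listed for miR-21b. miR-21c was listed at 35.17, 27.33, 74.83 and 56.33 counts in that order. In both mutants these were above both WT libraries, at 4.08 and 3.94 RPM against 2.32 and 2.66 RPM for miR-21b. Their counts are fractions of shared reads and lay within 3 to 7.5 counts of each other in every library, so neither can be taken as a separate measurement. Together they came to 0.00116% to 0.00240% of the counts of miR-21a-5p, and no sharing of that size could move its share. miR-590-5p, known to share the miR-21 seed, was listed at 0 in all 4 libraries, which allows up to 3 counts in each.

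miR-21a-3p, the passenger strand, was 4 orders of magnitude lower and had whole counts in every library. Its counts were 675 for WT A, 312 for WT B, 742 for KO and 421 for 3′F. Scaled to the library these are 39.5 RPM (95% Wilson interval 36.7 to 42.6), 27.3 RPM (24.5 to 30.5), 38.9 RPM (36.2 to 41.8) and 26.0 RPM (23.6 to 28.6). WT A and KO were high and WT B and 3′F low, so the mutants did not stand apart from WT. The WT libraries alone spanned 33.4 ± 8.62 RPM (SD, n = 2), a coefficient of variation of 25.8% against 7.39% for the 5p arm. The passenger strand ranked 172, 197, 169 and 188 among the mature miRNAs of the libraries in that order.

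**Figure D2:**
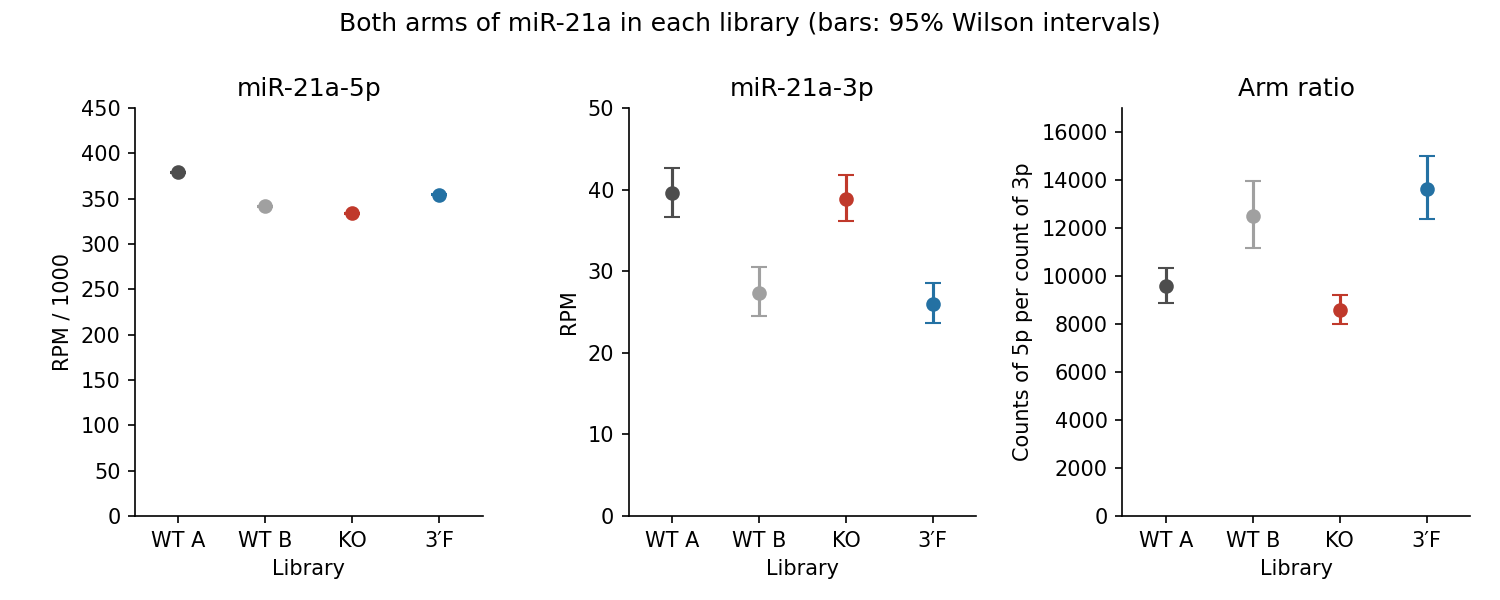
Level of miR-21a-5p (RPM divided by 1000), level of miR-21a-3p (RPM) and counts of 5p per count of 3p in each of the 4 libraries, with 95% Wilson intervals as bars and every axis from 0. The 3p arm is high in WT A and KO and low in WT B and 3′F, and the arm ratio runs the other way.

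Differences from WT were taken on the scale log2(RPM + 1), against the average of both WT libraries, and the added 1 RPM makes those of low miRNAs too small. For miR-21a-5p the difference was -0.11 in KO and -0.02 in 3′F, beside -0.15 for WT B minus WT A. For miR-21a-3p KO was at 0.23 and 3′F at -0.33, beside -0.52 for WT B minus WT A. All 4 differences from the WT average were smaller than the full gap between the WT libraries. Even so, miR-21a-5p in KO (-0.18 against WT A, -0.03 against WT B) and miR-21a-3p in 3′F (-0.59 and -0.07) were below both. In the other cases direction depended on the WT library taken. miR-21a-3p in KO was at -0.02 against WT A and at 0.49 against WT B, and miR-21a-5p in 3′F was at -0.10 and 0.05.

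Neither arm was 2-fold or more away from each WT library in either mutant (0 of 2 members in each). Among all 251 expressed miRNAs, 1.99% were called higher and 1.59% lower in KO, and 0% higher and 0.797% lower in 3′F, with 0% past 2-fold between WT A and WT B. The guide sat well inside the distribution, as 188 of 251 miRNAs differed from WT by at least as much in KO and 233 did in 3′F (each count here includes the arm itself). For the passenger strand these numbers were 124 in KO and 41 in 3′F. Between the WT libraries, however, 14 of 251 differed by as much as miR-21a-3p, whose -0.52 lay outside the 10th to 90th percentile range of -0.24 to 0.44.

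**Figure D3:**
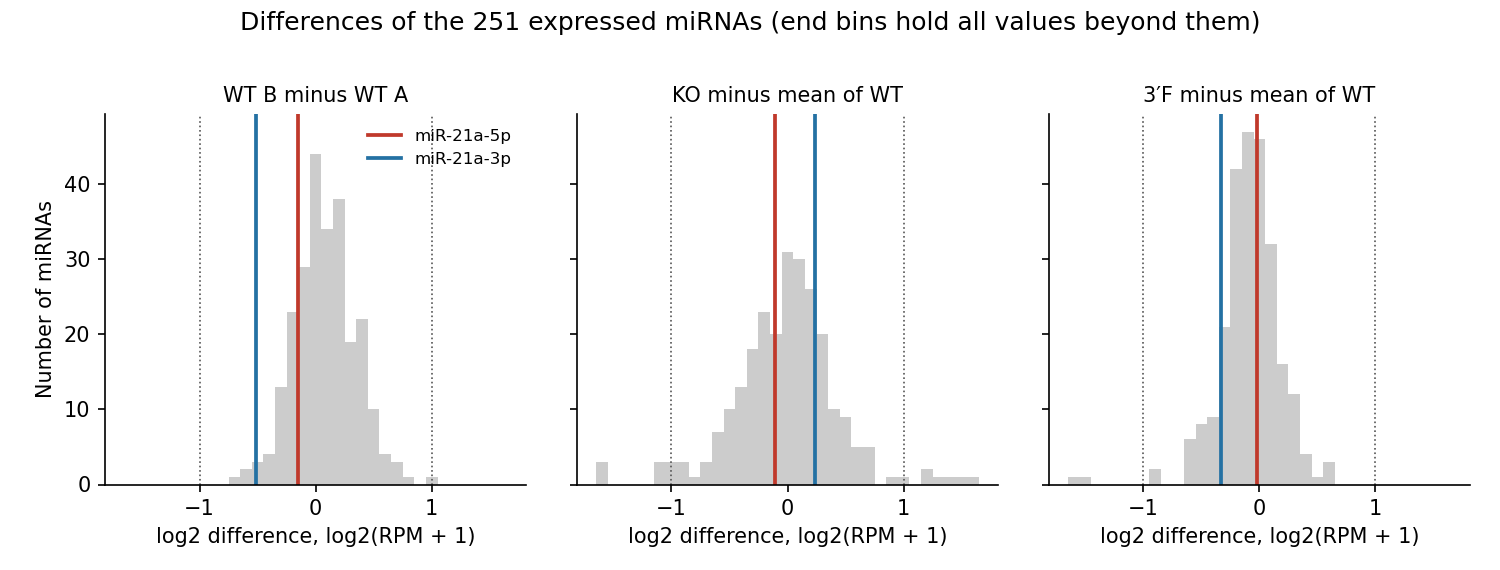
Number of expressed miRNAs (vertical axis, of 251) by log2 difference on the log2(RPM + 1) scale for WT B minus WT A, KO minus the WT mean and 3′F minus the WT mean, with both arms of miR-21a as coloured lines and the 2-fold lines dotted. The 3p arm differs most between the WT libraries (-0.52), and neither arm reaches a 2-fold line.

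The arm ratio is formed within a library and so does not depend on library scaling. Per count of 3p, WT A held 9587 counts of 5p (interval 8891 to 10338), WT B 12486 (11175 to 13950), KO 8583 (7987 to 9223) and 3′F 13632 (12391 to 14998). The passenger strand thus made up 104, 80.1, 116 and 73.4 of every 1000000 counts of the hairpin. KO lay below both WT libraries and 3′F above both, while the intervals of KO and WT A overlapped, as did those of 3′F and WT B. The WT mean was 11036 ± 2050 (SD, n = 2), with WT B 1.30 times WT A, and 3′F was 1.59 times KO. On the log2 scale the ratio was 13.23 for WT A, 13.61 for WT B, 13.07 for KO and 13.73 for 3′F. KO was at -0.35 and 3′F at 0.32 from the WT mean, both beyond the WT SD of 0.27 (n = 2). The full gap between WT B and WT A was 0.38, which is not a like measure to a distance from their mean.

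The swing of the passenger strand was set beside other hairpins. In 80 hairpins the less abundant arm had a mean of at least 10 RPM. Between WT B and WT A, 4 of the 80, miR-21a included, differed in that arm by as much as miR-21a-3p, around a median of 0.05. The log2 ratio of the more to the less abundant arm, taken on RPM + 1, differed between 3′F and KO by 0.65 for miR-21a, and 4 of the 80 reached that, around a median of -0.02. These hairpins share 4 libraries and their number carries no test.

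In reads, which ligation can also skew between arms, the arms of miR-21a were among the most unequal in these libraries. Over hairpins with both arms listed and at least 10 counts on the less abundant arm (223 hairpins), the ratio of mean RPM had a median of 8.00, and 14 hairpins reached 1000. miR-21a stood at 10690 and ranked 4. The hairpins above it were let-7g at 53026, let-7a-2 at 43891 and mir-146a at 16074, whose less abundant arms had 42, 16.5 and 11 counts in all 4 libraries together, against 2150 for miR-21a-3p. The mir-146a value moreover averages libraries in which its gene was deleted or altered. Among the 129 hairpins with at least 100 such counts, miR-21a ranked 1, and among the 408 with any count it ranked 7. With a minimum of 100 counts, only a hairpin whose more abundant arm is very abundant can reach a ratio this high. The rank of 1 thus follows in part from the level for which miR-21a was chosen.

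The hairpins of the other abundant miRNAs were spread widely. The ratio was 8586 for let-7i, 3609 and 1523 for let-7f-2 and let-7f-1, 346 for miR-30d and 253 for miR-27b. By level alone the miR-21a passenger strand was not low, at rank 45 of the 223 less abundant arms with 32.9 RPM, against a median of 2.77 RPM.

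**Figure D4:**
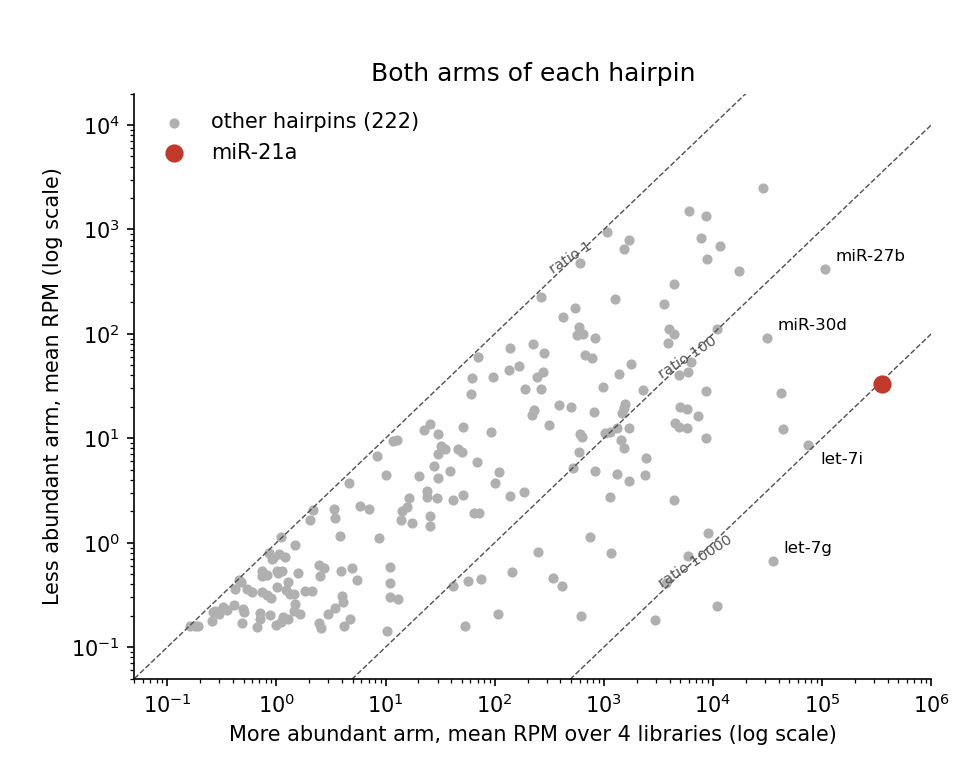
Mean RPM over the 4 libraries of the less abundant arm (vertical) against the more abundant arm (horizontal) of 223 hairpins, on log axes, with dashed lines at fixed ratios and miR-21a in red. miR-21a lies farthest right, beside the lowest dashed line, at 32.9 RPM for its less abundant arm.

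With the miR-21a lines left out of the library sum, every other miRNA rose by the same factor within a library. The factor was 1.610 for WT A, 1.518 for WT B, 1.501 for KO and 1.549 for 3′F. This is almost wholly the 5p arm, as leaving out miR-21a-3p alone changed levels by a factor of 1.00003 to 1.00004. For comparison, leaving out miR-27b-3p alone raised the rest by 1.11 to 1.13 times, and leaving out the 5 next miRNAs together by 1.39 to 1.43 times.

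The levels of the next miRNAs then read as follows. miR-27b-3p went from 104019 to 167520 RPM for WT A, from 99197 to 150621 for WT B, from 105667 to 158586 for KO and from 116117 to 179861 for 3′F, so it took 15.1% to 18.0% of the remaining counts. let-7i-5p went from between 73049 and 76588 RPM to between 109762 and 120449 RPM. miR-146b-5p, the close relative of miR-146a, went from 1558, 1916, 4410 and 1619 RPM to 2509, 2909, 6619 and 2507 RPM (order WT A, WT B, KO, 3′F). The 3′F miRNA, read in the 3′F library alone, went from 10.6 to 16.4 RPM. Its reads cannot be set beside those of miR-146a-5p, since ligation depends on sequence. By qRT-PCR, the paper found its absolute level similar to that of wild-type miR-146a in most of the tissues and cells compared.

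Between libraries the effect was small, because the share of miR-21a-5p was similar in all 4. Leaving it out moved differences from WT by -0.06 in KO and by -0.01 in 3′F on the log2 scale, apart from the effect of the pseudocount on low miRNAs. Between WT B and WT A it moved them by -0.08, more than in either mutant. The difference of miR-27b-3p in KO went from 0.06 to -0.00, that of miR-146b-5p in KO from 1.35 to 1.29, and that of miR-146a-5p from -8.66 to -8.76 in KO and from -9.58 to -9.66 in 3′F. In KO, miR-146a-5p and miR-146b-5p were past 2-fold from WT under both sums.

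Over the 249 other expressed miRNAs, the median difference in KO went from 0.01 to -0.05, and 25 of them changed sign. In 3′F it went from -0.08 to -0.09, with 3 sign changes. Between WT B and WT A the median went from 0.07 to -0.01, the number above 0 from 157 to 121 of 249, and the median absolute difference from 0.18 to 0.16. The WT libraries were thus centred closer to 0 without miR-21a, of whose counts WT A held the larger share. Scaling factors by TMM and by DESeq2 absorbed the step, as leaving out miR-21a before computing them moved these differences by 0.00 in KO and in 3′F.

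The call of 2-fold changes moved only at its edge. In KO, 9 miRNAs passed the 2-fold line against each WT library with the deposited sum and 11 with miR-21a left out, of which 8 were shared. Of the 251, 1.59% were then called higher and 2.79% lower in KO, and 0% higher and 0.797% lower in 3′F. miR-100-5p was lost, at 1.09 against WT A with the deposited sum and at 0.999 without miR-21a. miR-874-3p, miR-200a-5p and miR-147-5p were gained on the lower side, at -0.95, -0.90 and -0.88 against WT A before and at -1.07, -1.02 and -1.01 after. Without the added 1 RPM, miR-874-3p was already more than 2-fold below each WT library with the deposited sum. Its level there was 9.12 RPM for KO, 18.5 RPM for WT A and 19.9 RPM for WT B. The gain of miR-874-3p thus depended on the added 1 RPM. All 4 miRNAs whose call changed have means under 100 RPM, and each lay within a small distance of the 2-fold line under both sums. In 3′F the same 2 miRNAs, miR-146a-5p and the erythroid miR-451a, were called under both.

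How far 1 miRNA fills a library was also expressed as an effective number (inverse Simpson index, the number of equally abundant miRNAs that would give the same concentration of counts), over 1 line per mature miRNA. It was 5.11 for WT A, 5.98 for WT B, 6.10 for KO and 5.56 for 3′F. KO was thus above both WT libraries and 3′F between them, and both lay within 1 SD of the WT mean of 5.55 ± 0.618 (SD, n = 2). Once miR-21a was left out it was 13.28 for WT A, 14.42 for WT B and 12.44 for 3′F, with KO between the WT libraries, so that 3′F lay more than 1 SD below the WT mean of 13.9 ± 0.808. Between 2 and 3 miRNAs held 50% of counts with miR-21a and 5 without it, and 26 to 29 held 90% with it and 37 to 41 without it.

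**Figure D5:**
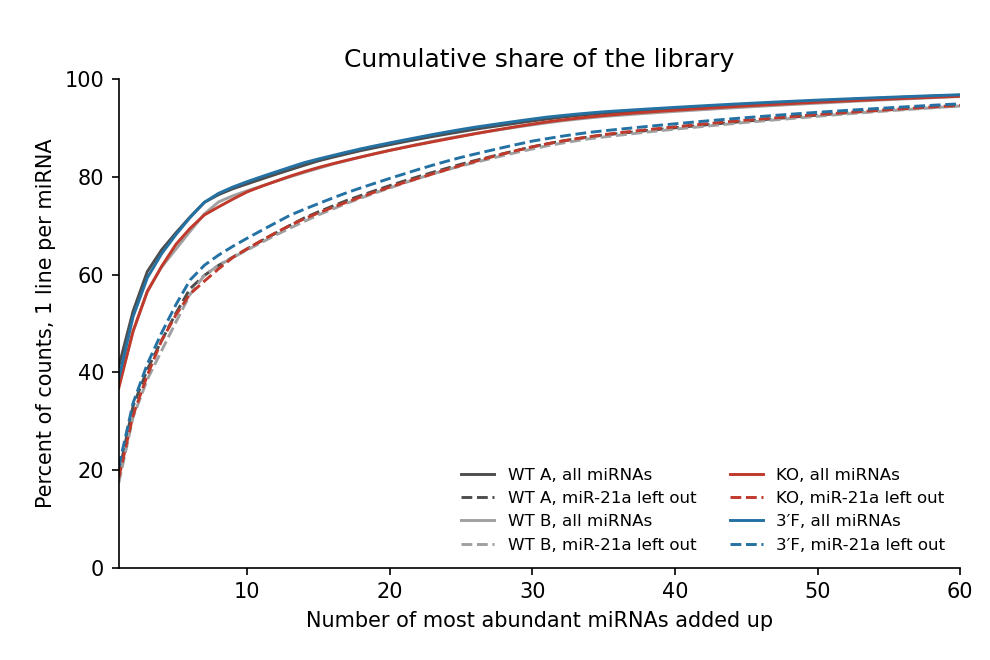
Cumulative percent of counts, over 1 line per mature miRNA, held by the most abundant miRNAs (horizontal axis, number added up) in each of the 4 libraries, with all miRNAs (solid) and with miR-21a left out (dashed). The solid curves start at 36.8% to 41.2%, the share of miR-21a-5p on this sum.

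The inflammation list, to which miR-21 is often added, held 12 miRNAs, of which 8 were expressed. In KO, 1 of these 8 was called higher (miR-146b-5p, 1.35) and 1 lower (miR-146a-5p, -8.66). The median difference of the 8 expressed members was 0.34, against 0.01 over all 251, of which 1.99% were called higher and 1.59% lower. The member called lower is the deleted miRNA itself. Of the other expressed members in KO, miR-125a-5p was at 0.67, miR-125b-5p at 0.59, let-7e-5p at 0.58 and miR-223-3p at 0.11. On the lower side were miR-132-3p at -0.64 and miR-155-5p at -0.35. The listed members under the expression minimum, which are not part of that median, were all lower in KO. They were miR-147-3p at -0.76, miR-9-5p at -0.32, miR-212-3p at -0.17 and miR-155-3p at -0.02. In 3′F, 0 were higher and 1 was lower (miR-146a-5p, -9.58), with a median of 0.04 against -0.08 over all 251, of which 0% were called higher and 0.797% lower. That one is the altered miRNA, and let-7e-5p was the highest at 0.30. miR-155-5p, a miRNA induced by Toll-like receptor signalling, had 71.3 RPM for WT A, 70.3 for WT B, 55.2 for KO and 62.7 for 3′F. It was thus far below miR-21a-5p, in reads, in these resting cells.

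The patterns most like those of the arms were found as the smallest of the largest log2 differences over the 4 libraries, each miRNA being centred on its own mean. For miR-21a-5p these were miR-30b-5p (0.064), miR-16-5p (0.065) and miR-450b-5p (0.067), against a median of 0.29 over expressed miRNAs. For miR-21a-3p they were miR-188-5p (0.15), miR-15a-5p (0.17) and miR-322-5p (0.19), against a median of 0.45. The miRNAs most like the passenger strand were likewise lower in WT B and 3′F than in WT A and KO, as with miR-15a-5p at 42.9, 37.4, 42.7 and 34.1 RPM in WT A, WT B, KO and 3′F. With 4 libraries such likeness is a description only.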

How the data were processed

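Small RNA of 4 BMDM libraries (2 WT, 1 KO, 1 3′F) had been prepared with the NEBNext Small RNA kit with inserts of about 18 to 35 bp. The authors deposited estimated counts made from the trimmed reads, in which a read fitting several miRNAs appears as fractions. They also deposited RPM values, each count divided by its library's sum over 2129 lines. The submitters' processing notes name cutadapt 1.8.3. The aligner, counter, genome build and miRNA release are not given in the sources used here.

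From the counts, shares with 95% Wilson intervals, arm ratios and library sums without miR-21a were computed (Python 3.11.15, pandas 2.3.3, statsmodels 0.14.6), taking for each of 1979 mature miRNAs the line with the highest summed count. miRNAs with several precursors make up 8.0% to 9.3% of counts beyond that line. Those with a mean of at least 10 RPM counted as expressed, and a call needed a 2-fold difference from each WT library in 1 direction. Differences were taken on log2(RPM + 1). The table's heading calls A and B biological replicates of culture, and the labels do not say whether they come from separate mice. No test was run, since KO and 3′F have 1 library each. Alternatives were scaling by edgeR 4.0.16 (TMM) and DESeq2 1.42.0 size factors on rounded counts, other minimums, thresholds and pseudocounts, and leaving out each WT library. The hairpin was folded with RNAfold 2.7.2. RefSeq sequences were matched by name for 1679 of 1979 miRNAs (228 of 251 expressed). The functions were tested on simulated data.

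The members, lists and rules were chosen with earlier results of these data known, the miR-21a lines and the most abundant miRNAs included, and lists came from general knowledge. Named miRNAs were the members, their near copies and seed mate, the 5 next in mean level, miR-146a-5p and miR-146b-5p, the 3 most alike each member, the 3 hairpins of highest arm ratio, the 3 next seed families, calls that change without miR-21a, and the ends of the inflammation list. miR-155-5p and the other named inflammation members, miR-451a, miR-200b-3p and the named myeloid markers were added after their values were seen.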

Additional observations from a re-analysis of the deposited data

How the results depend on the processing

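Of 64 alternatives over 16 results, 48 stayed within the limits set for a change, 16 moved and 0 were labelled as reversed. A change of sign within those limits, as for the small differences below, was not labelled as a reversal. With 1 line per mature miRNA in the sum, miR-21a-5p took 41.2% of WT A, 37.4% of WT B, 36.8% of KO and 38.7% of 3′F, because that sum is smaller. The mean effective number in WT, 5.55, was 6.53 over every deposited line and 13.9 without miR-21a. The 11 calls in KO without miR-21a became 30 at 1.5-fold, 4 at 3-fold, 21 at a minimum of 1 RPM and 3 at 100 RPM. The 2 calls in 3′F became 6, 1 and 1 at 1.5-fold, 3-fold and 100 RPM, and 2 to 5 when a WT library was left out (5 without WT B). The arm ratio rank of 4 became 1 at 100 counts and 7 at any count. The sign of the small differences was not stable for miR-21a-5p in 3′F and for miR-21a-3p in KO. miR-21a-5p in 3′F was at 0.06 by TMM and 0.05 by DESeq2, and at 0.05 without WT A, and miR-21a-3p in KO ranged from -0.02 without WT B to 0.49 without WT A and in 3′F from -0.59 without WT B to -0.07 without WT A. The shift on leaving out miR-21a ranged from -0.10 to -0.02 in KO and from -0.06 to 0.03 in 3′F over the same omissions. The cause was not tested.

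No paired analysis was possible because each mutant has a single library, whose column carries the letter A, so that it shares 1 letter with WT and forms 1 pair. With 2 WT libraries, the SD is known poorly. Depth limits miR-21a-3p, with 312 to 742 counts, and the near copies. It also limits the arm ratio rank, as the hairpins above miR-21a had 11 to 42 summed counts on the less abundant arm.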
